A study of Bos taurus with 12 samples.

Results

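The microRNA bta-miR-184 was examined in granulosa cells of the bovine ovary, and its reads lay almost entirely in 1 of 4 kinds of follicle, the dominant follicle at day 7 of the cycle. It was taken as the mature name bta-miR-184 in each count table, where it was listed with a single precursor, and is 1 of 755 mature miRNA names. The libraries came from Simmental heifers whose estrus had been synchronized with the prostaglandin analogue cloprostenol and the GnRH analogue buserelin, a treatment that all groups share. Subordinate follicles (SF) and dominant follicles (DF) were told apart by diameter, with larger limits at day 7 than at day 3. They were collected at day 3 and at day 7, with 3 biological replicates in each of the 4 groups and 12 libraries in all. Different heifers were slaughtered on the 2 days, and the cells were spun down from follicular fluid that had been pooled by follicle size. A library therefore need not stand for 1 follicle or 1 animal, and the cells were not sorted. The study counted 3 DF follicles at day 7, fewer than in any other group, and many more follicles in each SF group. DF at day 7 thus rests on few follicles, set against larger pools. Since bta-miR-184 was chosen because of its level in DF at day 7, its differences from SF at day 7 and from DF at day 3 are given as descriptions, without a test.

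Granulosa cells line the follicle around the oocyte and make its estradiol. In a follicular wave 1 follicle becomes dominant and the subordinate ones stop growing. MicroRNAs are short RNAs that, loaded on an Argonaute protein, pair through their seed with messenger RNAs and lower their translation or stability. miR-184 is conserved from insects to mammals, and in mammals it is best known as an abundant miRNA of the epithelium of the cornea and the lens. By the RefSeq genes of the bovine assembly ARS-UCD2.0, the MIR184 gene lies within the span of 1 uncharacterized long noncoding RNA gene, LOC112443131. Next to it lie RASGRF1, a Ras exchange factor gene, on one side and ANKRD34C on the other, and none of the 10 nearest genes on either side is a miRNA gene, so bta-miR-184 is not part of an annotated miRNA cluster there.

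Reads on known miRNAs, counted once per mature name, ranged from 160418 to 405129 per library, with a median of 297448.5. The level of 3 reads, taken as the limit that a count of 0 allows, was between 7.41 and 18.7 RPM, reads per 1000000 miRNA reads, which covers counting error only because copies made by PCR were not told apart. Every pair of replicates differed beyond sampling noise (chi-square of 10.2 to 128 per degree of freedom), so no library was counted as a repeat of another. The gonadal miRNA bta-miR-202, a marker of the labelled cell type, had a mean of 2667 and 3325 normalized counts in SF and DF of day 3, and of 2310 and 697 in SF and DF of day 7, so this marker was present in every group but lowest in DF at day 7. bta-miR-378, of the same marker list, had means of 755, 778, 1073 and 1445 normalized counts in SF and DF of day 3 and SF and DF of day 7, respectively, and was highest in DF at day 7.

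In the DF libraries of day 7, bta-miR-184 had 129, 105 and 131 raw reads in replicates 1, 2 and 3. No SF library of day 7 had a read. At day 3 the counts in SF were 4, 0 and 0 reads and those in DF were 0, 1 and 0 reads. All 3 DF libraries of day 7 therefore stood above all 9 others, and 365 of the 370 reads of this miRNA (98.6%) came from that group. In these bulk samples, fewer cells that hold the miRNA and less of it per cell cannot be told apart.

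On the RPM scale, the level of bta-miR-184 in DF at day 7 was 419 in replicate 1 (Wilson 95% interval 352 to 497), 655 in replicate 2 (541 to 792) and 401 in replicate 3 (338 to 476), with a mean of 492 ± 141 (SD, n = 3). The interval of replicate 2, which came from the smallest of the 12 libraries, did not overlap those of the other replicates. By abundance it ranked 102 of the 333 miRNAs with reads in replicate 1, 89 of 293 in replicate 2 and 103 of 328 in replicate 3, a place in the upper part of the list in each library. Scaled by library size factors, the same counts were 110, 175 and 118 normalized counts, with a mean of 134 ± 35.2 (SD, n = 3). The 3 counts spread more than counting error alone, at a chi-square of 7.04 per degree of freedom. Their coefficient of variation was 26.2%, and 26 of the 42 other miRNAs within 2 fold of this level in DF at day 7 had a smaller one, with a median of 21.8% over the 42.

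**Figure D1:**
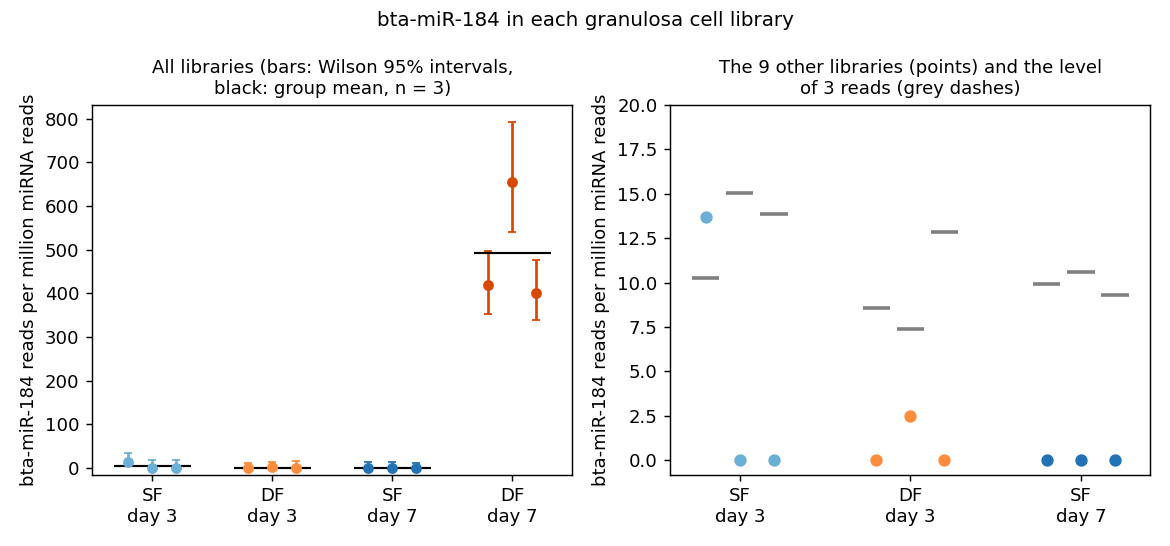
Level of bta-miR-184 in RPM in each library, by group. On the left, points are libraries, bars are Wilson 95% intervals and black lines are group means of 3 libraries; on the right, the 9 libraries outside DF at day 7 are drawn on a finer scale with the level that 3 reads would make in each library as grey dashes. The DF libraries of day 7 lie between 401 and 655, and no other library exceeds 13.7.

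The miRNAs nearest in mean level to bta-miR-184 in DF at day 7 were present in the other groups too. The next above were bta-miR-183, a miRNA of sensory epithelia, with 135 ± 33.9 normalized counts (SD, n = 3) in DF at day 7, and bta-miR-320a, with 138 ± 14.6. Those next below were bta-miR-339a and bta-miR-339b, which were listed with the same counts, 132 ± 2.30. In SF at day 7 the means of these 4 miRNAs lay between 102 and 368 normalized counts, and their lowest raw count in any library of that group was 24 reads. At a like level in DF, then, the 4 neighbours were measured in every SF library of day 7, whereas bta-miR-184 was not detected in any.

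Between SF and DF at day 7, the comparison that asks how miRNAs differ once 1 follicle is dominant, bta-miR-184 had 134 ± 35.2 normalized counts in DF and none in SF. Against the level that 3 reads would make in each SF library, DF was at least 46.7-fold higher. That bound was at least 39.7-fold without DF replicate 2. Libraries of SF and DF did not overlap, as was the case for 45.7% of the 350 miRNAs compared at day 7. The limit that a count of 0 allows over the 908489 reads of the 3 SF libraries together was 3.30 RPM.

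The median of the same ratio over these 350 miRNAs was 1.19-fold, with means under the level of 3 reads raised to it, and 8 miRNAs reached 10 fold or more. The ratio was highest for bta-miR-184 and next highest, at 14.6-fold, for bta-miR-221. Among 41 miRNAs with reads in DF but none in SF at day 7, the median was 1 read over the 3 DF libraries. Of the reads of these 41, bta-miR-184 held 80.8%, and the next, bta-miR-365-5p, had 15 reads. Since the miRNA was chosen on this difference, its place in the order is a description only.

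The DF of day 7 and day 3 came from different heifers and were taken by different diameter limits, so no follicle was followed over time. The paper proposes that follicles may not yet reach dominant size at day 3. The mean of bta-miR-184 was 0.204 ± 0.353 normalized counts (SD, n = 3) in DF at day 3 and 134 ± 35.2 in DF at day 7. The groups did not overlap, and neither did they for 50% of the 360 miRNAs compared. The ratio of the pooled rates was 505-fold, but it rests on 1 read at day 3, and its exact 95% counting interval runs from 90.1 to 20014. Without DF replicate 2 of day 3, which held that read, DF at day 7 was at least 51.8-fold higher than the level of 3 reads per library, and without DF replicate 1 of day 3 the ratio was 337-fold. How much higher than the lower bound the change was cannot be read at this depth.

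**Figure D2:**
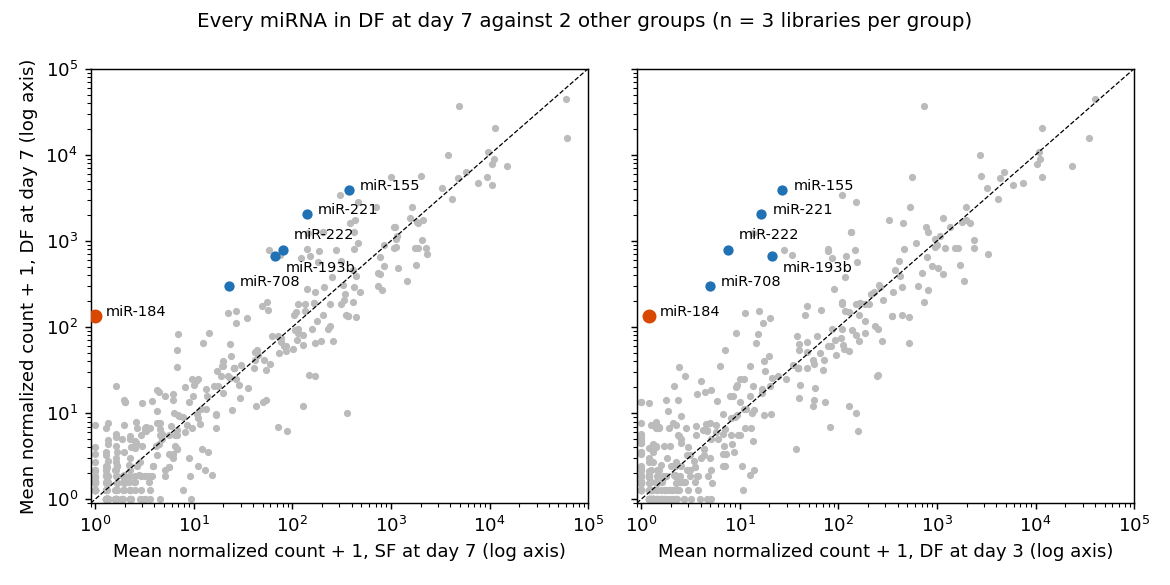
Mean normalized count plus 1 of every miRNA in DF at day 7 (vertical, log axis) against SF at day 7 (left) and DF at day 3 (right), 3 libraries per group, with the line of equal level dashed. The orange point is bta-miR-184, at 134 normalized counts in DF at day 7 and 0 in SF at day 7 or 0.204 in DF at day 3, and blue points are the 5 miRNAs most like it.

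Outside DF at day 7 the levels of bta-miR-184 could not be set in an order. The mean was 1.19 ± 2.06 normalized counts (SD, n = 3) in SF at day 3, 0.204 ± 0.353 in DF at day 3 and 0 in SF at day 7. SF replicate 1 of day 3, with 4 reads, had 13.7 RPM (Wilson 95% interval 5.31 to 35.1), and the limits that a count of 0 allows in its 2 fellow replicates, 15.0 and 13.9 RPM, lay above that value. In DF replicate 2 of day 3, the single read made 2.47 RPM (0.436 to 14.0). DF at day 7 thus stood above the other 3 groups, which overlapped each other.

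Neither SF against DF at day 3 nor day 7 against day 3 in SF gave a test of bta-miR-184 in the main analysis, because in no group among them did 2 or more of the 3 replicates have a read, as the filter on low counts required. These are the comparisons that do not hold a DF library of day 7, although the other libraries of the choice enter them. With no filter on low counts, the difference between SF and DF at day 3 had an adjusted p = 0.54 by the quasi-likelihood test of edgeR (Benjamini-Hochberg). For day 7 against day 3 in SF, the adjusted p was 0.61 in the same kind of fit in edgeR. At both comparisons the means were below the level of 3 reads per library, so a difference was not detectable at this depth and no fold is given. Of all miRNAs tested, 5.67% were called between SF and DF at day 3 and 0.593% between the days in SF, where a call needs a change of 1 or more on the log2 scale in either direction, with p up to 0.05 and a false discovery rate up to 10%.

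Taken over all 12 libraries, 99.0% of the summed normalized counts of bta-miR-184 were in DF at day 7. Over 186 miRNAs with a mean of at least 10 raw reads, which held 99.8% of all reads, the median share in that group was 25.3% and 34 had more than 50% there. The share exceeded 90% for 2 of them, bta-miR-184 and bta-miR-221, the latter with 90.9%. Among the 72 miRNAs with reads in DF at day 7 and no more than 5 reads over the 9 other libraries together, bta-miR-184 had 365 reads in DF at day 7 and the next, bta-miR-346, had 32. That is 105 reads or more of bta-miR-184 in each DF library of day 7, against 32 reads over 3 libraries for the next. The limit of 5 reads equals the count of bta-miR-184 in the 9 other libraries. It also has a mean of at least 10 raw reads only through DF at day 7, the group it was chosen on. Its share and its place in these orders are therefore descriptions only.

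**Figure D3:**
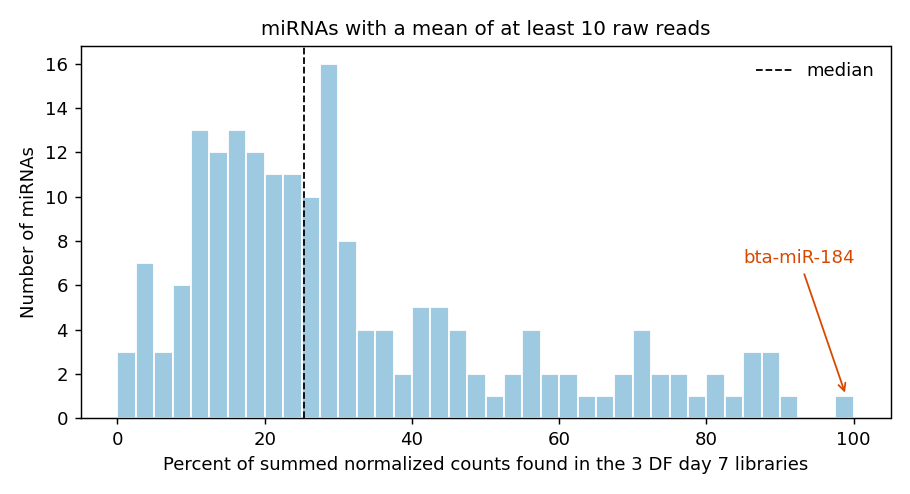
Number of miRNAs (vertical) by the percent of their normalized counts, summed over 12 libraries, that lies in the 3 DF libraries of day 7 (horizontal), for the 186 miRNAs with a mean of at least 10 raw reads. The dashed line is the median, 25.3%, and bta-miR-184 is at 99.0%, with bta-miR-221 next at 90.9%.

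To find the miRNAs with the most similar pattern, the percent of its normalized counts in each library was taken for each miRNA, and likeness was the percent shared with bta-miR-184 over the 12 libraries. Over 185 miRNAs the median likeness was 26.1%. The highest values were those of bta-miR-708 (89.97%), bta-miR-155 (89.5%), bta-miR-221 (89.4%), bta-miR-222 (87.2%) and bta-miR-193b (85.9%). Of these, miR-155 is known from activated leukocytes, and miR-221 and miR-222 are a pair from 1 cluster known to lower the cell cycle inhibitor p27. With the distance between standardized log2 values as the measure, none of these 5 was among the 5 nearest, which were bta-miR-24-3p, bta-miR-199a-3p, bta-miR-199c, bta-miR-181b and bta-miR-27a-3p, so the names depend on the measure while bta-miR-184 itself is the same.

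Unlike bta-miR-184, the 5 miRNAs most like it had reads in each of the 12 libraries. Their means in SF at day 7 were between 6.85% and 10.2% of their means in DF at day 7, whereas bta-miR-184 had no read there. For bta-miR-708, whose level was nearest to that of bta-miR-184, the raw reads at day 3 were 14, 11 and 6 for SF and 7, 6 and 3 for DF, and at day 7 they were 6, 32 and 28 for SF and 305, 208 and 326 for DF. The mean of bta-miR-708 in DF at day 7 was 300.1 ± 43.0 normalized counts (SD, n = 3), 13.8-fold above SF. For bta-miR-155 the normalized counts were 3565, 5215 and 2937 in DF at day 7 and 146, 555 and 433 in SF at day 7. In each of the 5 the mean in SF at day 7 was second only to that in DF at day 7. By contrast, bta-miR-184 had no read in SF at day 7.

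Within DF at day 7, replicate 2 had the highest normalized count of bta-miR-184 and of each of the 5 miRNAs most like it. Likeness was computed from the share in each library, this replicate included. That the 5 also peak there thus follows in part from how they were chosen, and is a description only. Over the 186 miRNAs with a mean of at least 10 raw reads, 64 (34.4%) were highest in that replicate, 22 in replicate 1 and 100 in replicate 3. The share of bta-miR-184 in DF replicates 1, 2 and 3 of day 7 was 27.1%, 42.9% and 29.0% of its total, against 27.2%, 45.3% and 18.3% for bta-miR-221.

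**Figure D4:**
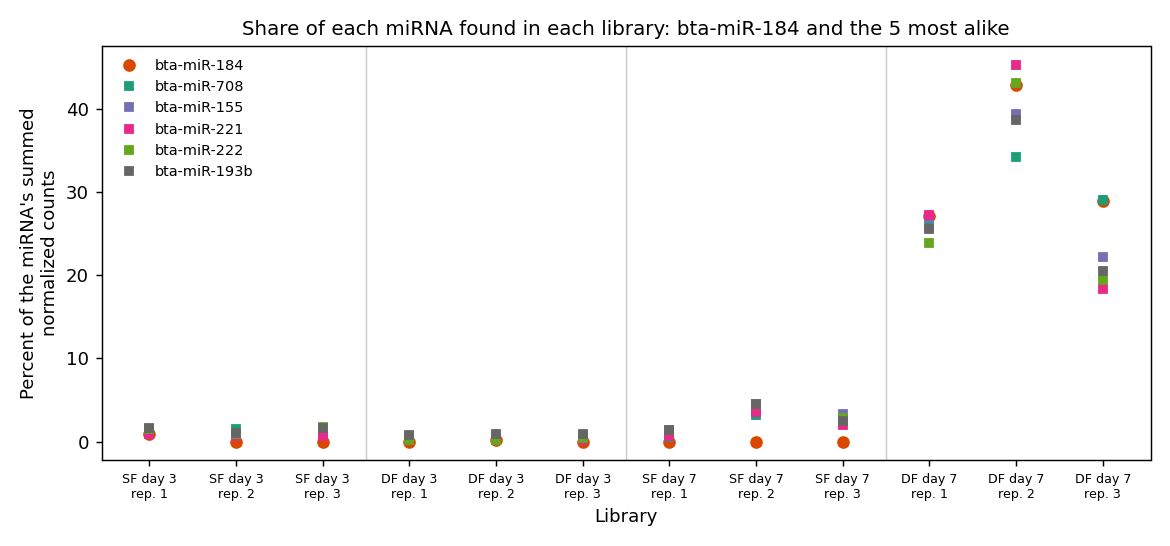
Percent of the summed normalized counts of each miRNA (vertical) that lies in each of the 12 libraries (horizontal), for bta-miR-184 (circles) and the 5 miRNAs most like it (squares). In DF at day 7 bta-miR-184 has 27.1%, 42.9% and 29.0% in replicates 1 to 3; in SF at day 7 it has 0% while the others have between 0.528% and 4.54% per library.

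The miRNAs that miR-184 accompanies in the eye and in surface epithelium were looked at as a list, of which 7 names were in the table and 6 had reads. This list and those below were drawn up with earlier results of these data known, so their counts are descriptions. bta-miR-205, a miRNA of stratified epithelium that is abundant in the cornea, had no read in any library. Of the 6 tested between the days in DF, 4 rose at day 7, where 24.4% of all miRNAs rose, with a median log2 fold change of 1.76 against 0.05 for all. These 4 were bta-miR-204, bta-miR-183, bta-miR-182 and bta-miR-96, and bta-miR-31, the most abundant of the list, fell by 1.73 on the log2 scale (standard error 0.24, adjusted p = 4.46e-05, edgeR). Between SF and DF at day 7, bta-miR-204 was lower in SF, where 18.3% of all miRNAs were lower, and bta-miR-31 was higher, while the other 4 tested were not called. The level of bta-miR-204, a miRNA of lens and retinal pigment epithelium, was 274 ± 48.0 normalized counts (SD, n = 3) for SF of day 3 and 454 ± 86.1 for DF of day 3, and it was 388 ± 39.99 for SF of day 7 and 1632 ± 686 for DF of day 7, so that it was measured in all groups, unlike bta-miR-184. In the epithelial miR-200 list, none of the 4 names tested at day 7 and none of the 3 tested in DF between the days was called in edgeR, 0 had an unadjusted p under 0.05 and DESeq2 called 0, and its summed level was at most 94.3 RPM in any library. Its leading miRNA, bta-miR-141, had a mean of 1.45 ± 1.36 normalized counts in DF at day 7.

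Most leukocyte markers, and some markers of other cell types, were also higher in DF at day 7, while others were not. All 8 leukocyte names had reads, 6 of 8 were lower in SF than in DF at day 7 (18.3% of all miRNAs) and 7 of 8 rose in DF from day 3 to day 7 (24.4% of all miRNAs). bta-miR-342 was called in neither, with means of 255 normalized counts in DF at day 3, 328 in SF at day 7 and 308 in DF at day 7. The median log2 fold changes of the list were -2.78 and 4.54, against -0.05 and 0.05 for all miRNAs tested. Summed over the list, the level was between 3076 and 4125 RPM for SF of day 3, between 2460 and 2853 for DF of day 3 and between 4014 and 8323 for SF of day 7. In DF replicates 1, 2 and 3 of day 7 it was 37167, 78507 and 17288 RPM, beside 419, 655 and 401 for bta-miR-184. bta-miR-155 is both in this list and among the 5 miRNAs most like bta-miR-184. Replicate 2 was the highest for both on this scale, and the highest and the lowest differed more for the leukocyte list. What part leukocytes have in the level of bta-miR-184 was not tested.

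The erythrocyte list, with bta-miR-486 as its most abundant name, summed to between 2752 and 8702 RPM in DF and between 1526 and 1717 in SF at day 7, and both of its 2 tested names were lower in SF, as were 18.3% of all miRNAs. In DF at day 3, where bta-miR-184 had 1 read, the list was between 2974 and 4764 RPM, a range that lies within that of DF at day 7. None of its 3 names was called between the days in DF by edgeR or DESeq2, with 1 at an unadjusted p under 0.05. Its highest value at day 3, 6293 RPM, was in SF replicate 1, the library with the 4 reads of bta-miR-184. Of 10 theca and stroma names, 7 were lower in SF at day 7 (18.3% of all miRNAs) and 8 rose in DF (24.4% of all miRNAs), among them bta-miR-143, a miRNA of smooth muscle and fibroblasts, while bta-miR-10b, the most abundant of them, was higher in SF and fell in DF. Summed over this list, the level at day 7 was lower in DF, between 119351 and 132041 RPM, than in SF, between 212856 and 251327 RPM. That sum mostly follows bta-miR-10b, with means of 60821 normalized counts in SF and 15491 in DF at day 7. The 7 names lower in SF go the other way, so the sum does not give the direction of most names. The 2 arms of the endothelial miR-126 were not called between SF and DF at day 7 by edgeR or DESeq2, with 0 at an unadjusted p under 0.05, and 1 of them, bta-miR-126-3p, rose in DF. The part of these cell types was not tested either.

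In the granulosa and gonad list, 3 of 4 names were higher in SF than in DF at day 7, where 15.1% of all miRNAs were higher, and 2 of 4 fell in DF between the days, where 15.8% fell. bta-miR-202 fell by 2.28 on the log2 scale (edgeR, adjusted p = 1.93e-05, standard error 0.29), and bta-miR-224, a miRNA induced by TGF-beta in granulosa cells, also fell. bta-miR-378 was not called, with 778 ± 95.2 normalized counts (SD, n = 3) in DF of day 3 and 1445 ± 521 in DF of day 7, a log2 difference of 0.88 (adjusted p = 0.014, edgeR) that did not reach the 1 a call needs. Of the 4 names of the gonadotropin-induced list, 2 were lower in SF at day 7 (18.3% of all miRNAs) and 3 rose in DF (24.4% of all miRNAs), led by bta-miR-21-5p, an antiapoptotic miRNA of luteinizing granulosa cells, with a rise of 5.62 on the log2 scale (adjusted p = 2.47e-10 and standard error 0.22, edgeR). The 2 names lower in SF are the 2 arms of miR-21, while bta-miR-132 and bta-miR-212 were not called there. In DF at day 7 the summed level of this list was 145115 RPM in replicate 1, 115922 in replicate 2 and 152464 in replicate 3. The level of bta-miR-184 in these replicates was 419, 655 and 401 RPM. What these 2 lists have to do with the level of bta-miR-184 was not tested.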

How the data were processed

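Granulosa cell small RNA was sequenced in 12 libraries, and groups and replicate numbers come from the sample labels. Base calls were made with CASAVA 1.8.0 and reads were checked with FastQC and trimmed with cutadapt, per the labels. The authors aligned the reads to the bovine UMD genome, counted them on the known miRNAs of miRBase with miRDeep2, and deposited raw read counts for each pair of mature miRNA and precursor, 906 entries under 755 names, with replicates not pooled. A read matching several precursors can be counted at each, so the entry with the most reads stood for each name. bta-miR-184 has 1 entry and is not affected by this choice.

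Normalized counts are counts divided by median-of-ratios (RLE) size factors over all 12 libraries. For each comparison, raw counts of the 6 libraries concerned were fitted, for miRNAs that had 1 read or more in 2 or 3 replicates of either group, with edgeR 4.0.16 in R 4.3.3 (quasi-likelihood F test, two-sided, RLE factors, Benjamini-Hochberg adjustment over all miRNAs tested). Standard errors were taken from F as the absolute log2 fold change over root F, an approximation. Intervals for shares are Wilson 95% intervals from scipy 1.17.1. The fit was also run on simulated counts drawn from the means of the day 3 libraries. Recovery of changed miRNAs was required there only at a mean of at least 10 counts. The spread of DF at day 7 was not simulated. Alternatives were TMM factors, scaling by library size only, keeping all miRNAs, a minimum of 10 reads in 3 of the 6 libraries, DESeq2 1.42.0, all 12 libraries in one fit, counts summed over precursors, a replicate block, and leaving out each library.

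Same-numbered SF and DF libraries of day 7 deviated together from their group means only weakly over 186 miRNAs, with correlations of 0.13, 0.16 and 0.18. In the 3 other comparisons the correlations ran from -0.14 to 0.11. These values neither establish nor exclude that the numbers pair the libraries of day 7, and the labels name no animal. The main fits hold no pairing term. Their p-values measure the spread between these samples, which rest on few follicles in DF at day 7 and on larger pools in SF.

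Named miRNAs were set by rule as bta-miR-184, the 5 most like it, the 2 next above and the 2 next below it in level in DF at day 7, and the most abundant member of each list; bta-miR-346, bta-miR-365-5p, and other members of the lists and of the second likeness measure were named after their values were seen. The miRNA and the lists were chosen with earlier results of these data known. No miRNA sequence was used here, so relatives by seed were not analysed here. Gene neighbours come from RefSeq genes of ARS-UCD2.0, an assembly other than that of the counts, for their order only.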

Additional observations from a re-analysis of the deposited data

How the results depend on the processing

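The lower bound for bta-miR-184 in DF against SF at day 7 was at least 46.7-fold and ran from 39.7 to 50.8 with 1 library left out in turn. The ratio of day 7 to day 3 in DF was 505-fold and ran from 51.8, a bound, to 550 in the same way. With TMM factors they were at least 46.4-fold and 487-fold, and with library size alone at least 49.5-fold and 454-fold. In the second measure of likeness, 0 of the 5 most similar miRNAs were the same, by another construction of distance. The main analysis called 19 miRNAs between SF and DF at day 3, 117 at day 7, 145 between the days in DF and 2 in SF. At day 3 the number was 12 with at least 10 reads in at least 3 libraries, 11 with DESeq2, 8 with all 12 libraries in one fit, and from 10 (without SF replicate 1) to 21 with 1 library left out. At day 7 it ran from 100 to 120 and between the days in DF from 122 to 146, with 92 under the filter of 10 reads, where fewer miRNAs were tested. Between the days in SF it was 12 with no filter, 0 with the filter of 10 reads (25 at an unadjusted p under 0.05 in edgeR), 5 with DESeq2, 1 with all 12 libraries, and from 0 to 20 with 1 library left out. It was 20 without SF replicate 1 of day 7 and 0 without SF replicate 1 or 2 of day 3 or SF replicate 2 of day 7, where 25, 26 and 26 had an unadjusted p under 0.05. The cause of these changes was not tested. A replicate block gave 115 miRNAs at day 7, 15 at day 3, 137 in DF and 7 in SF, although a pairing by replicate number was not established. It was not run for the 2 ratios of bta-miR-184, which come from no test. Depth limits every statement on bta-miR-184 outside DF at day 7, where 3 reads are at or above most of its counts.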
